A study of Mus musculus with 12 samples.

Results

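The transcripts of 3 neuropeptide genes, Cck, Npy and Vip, were followed across RNA-sequencing of 562 cells, a mouse vascular tumor cell line, in control cells and in cells with a CRISPR-Cas9 knockout of an autophagy gene. These 3 genes, of 14851 in the deposited tables, were selected on their values in these same libraries, namely expression in control tumor cells and near loss in each of the 3 knockout (KO) cells. Their KO values against control are therefore given as a description, with no test. The selection set no number as a threshold.

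The 562 line was established from cutaneous tumors of tamoxifen-treated Tsc1 f/f;Scl-Cre mice on C57BL/6, so all 4 groups, including the controls labelled as wildtype, carry the Tsc1 deletion, which raises mTORC1 activity. Scl-Cre acts under an endothelial enhancer of the stem cell leukemia gene. LentiCRISPR v2 vectors carried sgRNAs against Fip200, which is the gene Rb1cc1 and encodes a subunit of the complex that starts autophagy, or against Atg5 or Atg7, which act in the conjugation of LC3 to the autophagosome membrane. Control cells received an sgRNA to EGFP, and all were selected in puromycin. Each group had 3 libraries. The study describes more than 1 Fip200 KO clone, and the labels do not say which clone a library is, so the p-values below measure the spread between these libraries only, which may be technical. In bulk RNA, fewer cells that express a gene and less RNA per cell cannot be told apart.

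Library names began with FY for control replicate 1 and all Fip200 KO libraries, with JG for control replicates 2 and 3 and Atg5 KO replicates 1 and 2, and with Yang for Atg5 KO replicate 3 and all Atg7 KO libraries. No control library shares the prefix of the Atg7 KO libraries. The libraries held between 17266926 and 23629730 reads on the listed genes. Atg5 KO replicates 1 and 2, both JG, were closer to each other than any other pair within a group, with a chi-square of their counts per degree of freedom of 8.19 against 48.5 to 297, and without replicate 1 or 2 the Atg5 KO calls over all genes were 753 or 797 lower and 461 or 503 higher, against 821 and 510. Rb1cc1 was at 5.18, 6.84 and 2.06 RPKM (reads scaled to the length of the transcript and to the depth of the library) in Fip200 KO cells, against 6.43 to 8.28 in control cells. Atg5 was at 8.53, 15.6 and 12.6 RPKM in Atg5 KO cells, against 10.6 to 14.2 in control cells, and the transcript therefore does not separate these libraries from control. A frameshift from Cas9 need not lower the level of the transcript. Atg7 was at 5.40, 2.64 and 8.34 RPKM in Atg7 KO cells, against 18.4 to 25.0 in control cells. The tissue label names lymphatic endothelial cells. The endothelial adhesion gene Pecam1 was at 264.6 to 428 RPKM in control cells, and of the lymphatic genes Lyve1 was at 60.6 to 179.5, Pdpn at 65.6 to 227 and Flt4 at 31.7 to 65.2, while Prox1, the transcription factor that defines lymphatic identity, was at 0.153 to 1.35 RPKM.

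Neuropeptides are made as longer precursors that enter the secretory pathway, are cut at pairs of basic residues by prohormone convertases, trimmed by carboxypeptidase E and often amidated at the C terminus, and are stored in dense-core vesicles until a stimulus releases them. CCK, the product of Cck, is a gut and brain peptide that contracts the gallbladder and drives pancreatic secretion. NPY, from Npy, is released with noradrenaline from sympathetic nerves, constricts blood vessels and stimulates feeding. VIP, from Vip, relaxes vascular and other smooth muscle. All act on G protein-coupled receptors, and the transcription of each is known to respond to cAMP in neurons or neuroendocrine cells.

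The 3 genes lie on different chromosomes, Cck on chromosome 9, Npy on chromosome 6 and Vip on chromosome 10. Their promoters are shown because the genes shared a pattern of expression, so that their letters can be compared. The 200 bases before each RefSeq start are given 5′ to 3′ on the strand of the gene, from RefSeq on GRCm38.p6, and span chr9:121495695-121495894 on the minus strand for Cck, chr6:49822510-49822709 on the plus strand for Npy and chr10:5639018-5639217 on the plus strand for Vip. Capitals mark a match to 1 of 5 motifs searched on both strands, namely the cAMP response element (CRE) TGACGTCA, its core TGACG, which lies within it, the AP-1 site TGACTCA, the TATA box TATAAA and the GC box GGGCGG.
Cck: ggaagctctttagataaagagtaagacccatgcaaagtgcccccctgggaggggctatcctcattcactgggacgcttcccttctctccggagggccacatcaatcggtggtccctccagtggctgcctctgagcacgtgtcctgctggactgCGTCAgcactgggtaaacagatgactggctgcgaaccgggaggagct
Npy: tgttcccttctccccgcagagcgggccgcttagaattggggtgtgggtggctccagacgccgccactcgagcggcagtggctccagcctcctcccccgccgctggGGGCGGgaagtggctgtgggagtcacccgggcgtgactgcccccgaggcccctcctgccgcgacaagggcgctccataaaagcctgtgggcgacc
Vip: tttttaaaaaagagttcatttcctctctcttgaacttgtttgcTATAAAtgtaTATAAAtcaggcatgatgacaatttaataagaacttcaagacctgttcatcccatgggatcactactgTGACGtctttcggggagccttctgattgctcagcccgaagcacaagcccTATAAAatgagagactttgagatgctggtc

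In the 250 bases before the start, the Cck promoter held the CRE core on the strand opposite to the gene, at positions -47 to -43 from the start. The Vip promoter held the CRE core on the strand of the gene, at -79 to -75, and the TATA box at -157, -147 and -30. The Npy promoter held the GC box at -95 to -90 and none of the other motifs. The full CRE and the AP-1 site were in none of the 3 windows. Of 32851 RefSeq promoters of the same length, 17.8% held the CRE core, 1.55% the full CRE, 4.46% the AP-1 site, 12.4% the TATA box and 32.7% the GC box. GC content was 60.0% for Cck, 69.2% for Npy and 38.4% for Vip, with a median of 52.4% over all promoters. No motif was thus shared by all 3 genes, and the windows differed in base composition. A match is a description of letters and not of a bound site.

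**Figure D1:**
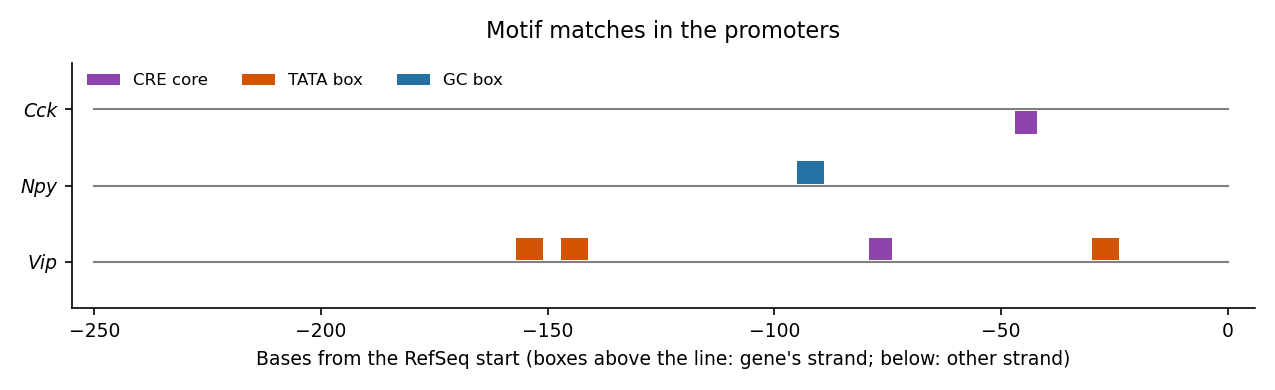
Positions of the motif matches in the 250 bases before the RefSeq start of each gene, with the distance from the start in bases on the x axis and 1 line per gene. Boxes above a line are on the strand of the gene and boxes below it on the other strand, and the CRE core is on opposite strands in Cck and Vip, at -47 and -79.

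Cck had the highest level of the 3 genes in control cells and the widest spread. It was at 59.6, 611 and 271 RPKM in control replicates 1, 2 and 3 (965, 12337 and 4575 reads), at 0.827, 0 and 14.6 in Fip200 KO cells (14, 0 and 274 reads), at 2.49, 4.604 and 2.28 in Atg5 KO cells (41, 81 and 42 reads), and at 0.271, 0.128 and 0.631 in Atg7 KO cells (4, 2 and 11 reads). The control libraries did not overlap the KO libraries, and the lowest control was 4.08 times the highest KO value, that of Fip200 KO replicate 3. The control mean was 314 ± 278 RPKM (SD, n = 3), and 64.9% of the control sum came from replicate 2. Of the 10 mural and fibroblast markers given at the end, Col3a1, Dcn, Pdgfra and Pdgfrb were in the same order across the control replicates, with Dcn at 0.125, 56.9 and 15.3 RPKM and Pdgfra at 0.113, 9.02 and 2.26. The other members were not, and Col1a1 and Col1a2 were below 0.1 RPKM in each control. The part of these markers in the spread of Cck was not tested. Means were 5.15 ± 8.21 with Fip200 KO, 3.12 ± 1.29 with Atg5 KO and 0.344 ± 0.259 with Atg7 KO (SD, n = 3 each), or 61.0-fold, 101-fold and 914-fold below control.

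The size of the Cck difference rested on single libraries. Without control replicate 2 the folds were 32.1 for Fip200 KO, 53.0 for Atg5 KO and 481 for Atg7 KO. Without Fip200 KO replicate 3, which carried 94.7% of the Cck RPKM of its group, the fold for Fip200 KO was 759, and without Fip200 KO replicate 2, in which no read was found, it was 40.6. A count of 0 allows up to 3 reads. The fold for Atg7 KO was 1571 without Atg7 KO replicate 3. In the 3 Atg7 KO libraries together 17 Cck reads were counted, with an exact Poisson 95% interval of 9.90 to 27.2 that covers counting error only.

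Npy was the gene with the fewest reads in KO cells. Its RPKM was 16.3, 11.8 and 26.4 in control replicates 1, 2 and 3 (174, 157 and 294 reads), 0.179, 0 and 0 in Fip200 KO cells (2, 0 and 0 reads), 0.184, 0.775 and 0 in Atg5 KO cells (2, 9 and 0 reads), and 0, 0 and 0.174 in Atg7 KO cells (0, 0 and 2 reads). Of the 9 KO libraries 8 had 3 reads or fewer, the floor used here, and the exception was Atg5 KO replicate 2. The lowest control library was 15.2 times the highest KO library. The control mean was 18.1 ± 7.48 RPKM (SD, n = 3). Against the mean RPKM that 3 reads per library would give, Npy was lower by at least 70.2-fold in Fip200 KO and by at least 63.3-fold in Atg7 KO cells, while its mean in Atg5 KO cells, 0.319 ± 0.405 (SD, n = 3), was 56.8-fold lower.

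Vip had the lowest level in control cells and the smallest spread there, with a coefficient of variation of 17.6% against 41.2% for Npy and 88.6% for Cck. Its RPKM was 5.51, 5.87 and 7.59 in control replicates 1, 2 and 3 (168, 223 and 241 reads), 0.157, 0.309 and 0.369 in Fip200 KO cells (5, 10 and 13 reads), 0.290, 0.181 and 0.374 in Atg5 KO cells (9, 6 and 13 reads), and 0.108, 0.478 and 0.213 in Atg7 KO cells (3, 14 and 7 reads). All 9 KO libraries were below 0.5 RPKM, and 8 of them had more than 3 reads, so a low level of Vip remained countable. The lowest control was 11.5 times the highest KO library. The control mean was 6.33 ± 1.11 RPKM (SD, n = 3), and the KO means were 0.278 ± 0.109 with Fip200 KO, 0.282 ± 0.0967 with Atg5 KO and 0.266 ± 0.190 with Atg7 KO (SD, n = 3 each), or 22.7-fold, 22.4-fold and 23.7-fold lower. Without Atg7 KO replicate 2, the fold for Atg7 KO was 39.3.

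**Figure D2:**
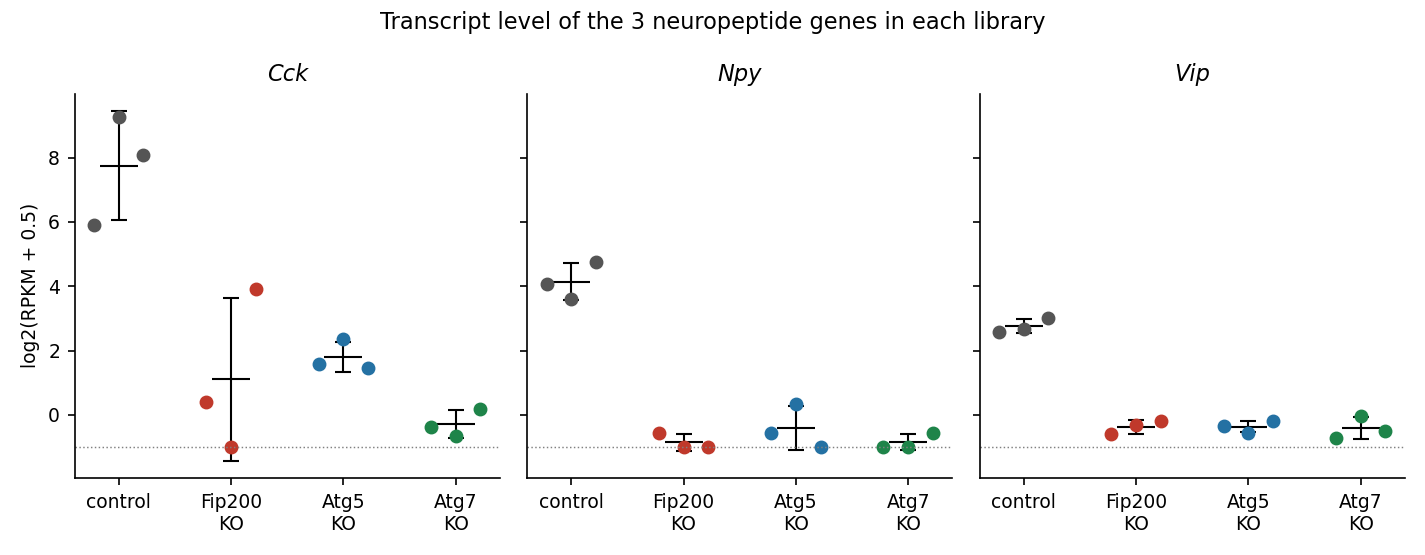
Level of Cck, Npy and Vip as log2(RPKM + 0.5) in each of the 12 libraries, points in order of replicate, with bars for the mean and SD of 3 libraries per group and a dotted line at an RPKM of 0. Control points sit above all KO points for each gene, and Fip200 KO replicate 3, at 14.6 RPKM, stands above the other KO libraries for Cck.

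The genes ranked low among all genes tested in each comparison on the log2(RPKM + 0.5) scale. Cck differed from control by -6.64 (SE 1.32) with Fip200 KO, by -5.95 (SE 0.781) with Atg5 KO and by -8.04 (SE 0.765) with Atg7 KO, which placed it first of 11803, the second lowest of 11833 and first of 11784 genes. For Npy the differences were -5.00 (SE 0.343), -4.54 (SE 0.413) and -5.00 (SE 0.316), at ranks 5, 9 and 10. For Vip they were -3.13 (SE 0.258), -3.12 (SE 0.190) and -3.17 (SE 0.251), at ranks 46, 44 and 44. On this scale the added 0.5 understates the change of a gene near 0, and the ranks describe how the genes were selected. The same 3 control libraries entered each comparison, so the 3 values of a gene are not independent of each other.

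**Figure D3:**
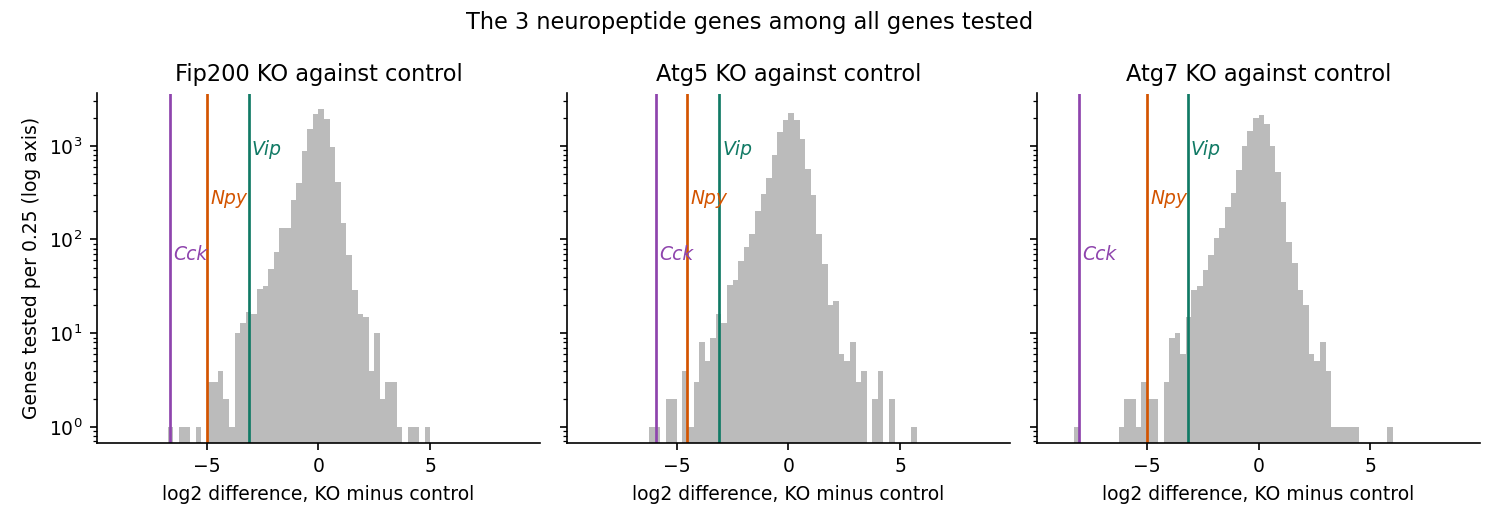
Number of genes tested, on a log axis, by their log2 difference of KO minus control in bins of 0.25, for each KO, with vertical lines at the 3 neuropeptide genes. Cck lies at the lower end in each panel, at -6.64, -5.95 and -8.04, while Vip lies near -3 within the lower tail.

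Within libraries of the same name prefix, the 3 genes were lower in KO cells, a direction that their selection on these same libraries had set. Between control replicate 1 and the 3 Fip200 KO libraries, all FY, Cck was 11.6-fold, Npy at least 63.0-fold and Vip 19.8-fold lower. Between control replicates 2 and 3 and Atg5 KO replicates 1 and 2, all JG, Cck was 124-fold, Npy 39.8-fold and Vip 28.6-fold lower. No control shared the prefix of the Atg7 KO libraries, but Atg5 KO replicate 3 did, so the prefix could be a term in 1 fit of all 12 libraries, an alternative added after the data were seen. There the differences of Atg7 KO from control were -8.47 (SE 1.91) for Cck, -4.14 (SE 0.664) for Npy and -3.51 (SE 0.469) for Vip on the log2 scale. The Cck level of control replicate 1, the FY control, was the lowest of the 3 controls. Leukocyte markers were also at lower summed levels in 8 of 9 KO libraries than in control, sums that came mostly from Cd68, Lyz2 and S100a8. In control, Ptprc was at 0.0186 to 0.0971, Csf1r at 0.0261 to 0.0817 and Adgre1 at 0 to 0.0163 RPKM. Mural and fibroblast markers went both ways, Dcn and Pdgfra being lower in all 9 than in control replicates 2 and 3 and Col1a2 higher in all 9 than in any control. The values are given at the end, and the part of these markers in the differences was not tested.

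The levels in the 3 KO cells are set side by side as a description, with no test, since the selection held each KO near 0. In a limma fit of all 12 libraries and 12233 genes, Cck differed by -2.09 (SE 1.08) between Atg7 KO and Atg5 KO on the log2 scale, by -1.40 between Atg7 KO and Fip200 KO and by 0.69 between Atg5 KO and Fip200 KO. Every Atg7 KO library was below every Atg5 KO library, and the Fip200 KO libraries spanned the range of both. By mean RPKM Fip200 KO stood above Atg5 KO, an order that rested on Fip200 KO replicate 3 and turned without it. For Npy the differences lay between -0.46 and 0.45 (SE 0.369) and for Vip between -0.050 and 0.0090 (SE 0.239). Over all genes, 0.0% were called for each of the 3 pairs, with 927, 916 and 562 genes at an unadjusted p under 0.05, and 0 by voom on the recovered reads.

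Other genes shared the on-off pattern. With at least 30 reads in every control library and at most 10 in every KO library, 8 of 10969 genes (0.0729%) met both limits, and Npy was the only 1 of the 3 neuropeptide genes among them. The highest KO count was 14 reads for Vip and 274 reads for Cck, which placed them outside. Of the 8, those highest in control by mean RPKM were Gpc1, a cell surface heparan sulfate proteoglycan, at 110.2 (156, 22356 and 4349 reads in control replicates 1, 2 and 3, so that replicate 2 gave most of it), Npy at 18.1, the forkhead factor Foxq1 at 6.73, H2-DMb1, which loads peptides on MHC class II, at 3.59, and the homeobox factor Meis3 at 2.65. The reverse limits were met by 1 gene.

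Over the 12 libraries, the genes whose log2(RPKM + 0.5) was most like that of Cck by Pearson's r were Cc2d1a (0.966), the small GTPase Rem2 (0.963) and the nuclear pore gene Nup93 (0.962). For Npy they were the phospholipase gene Pla2g12b (0.989), Anapc10, a subunit of the anaphase-promoting complex (0.983), and Mme (0.981), which encodes neprilysin. For Vip they were Foxq1 (0.983), the interferon-induced Mx1 (0.982) and Mme (0.980). Npy and Vip had an r of 0.964 with each other, against 0.893 between Cck and Npy and 0.897 between Cck and Vip. The step from 3 control to 9 KO libraries, which the selection used, enters all these values, and 78, 102 and 99 genes had an r over 0.9 with Cck, Npy and Vip.

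The genes that receive, make, store and degrade neuropeptides were compared next, by limma for each KO against control, and a gene was called where the Benjamini-Hochberg adjusted p did not exceed 0.1 and the fold change was 1 or more on the log2 scale in either direction. Of all genes tested, 1.64% were called lower and 0.347% higher for Fip200 KO, 6.94% lower and 4.31% higher for Atg5 KO, and 6.81% lower and 3.29% higher for Atg7 KO. Of 126 listed pathway genes in the tables, 89, 91 and 90 were tested, and 2, 18 and 14 were called lower and 0, 6 and 3 higher. Counts of 3 values are given in the order Fip200, Atg5 and Atg7 KO throughout. At an unadjusted p under 0.05, 20 pathway genes were lower and 5 higher for Fip200 KO, and voom called 2 lower and 0 higher. These lists were chosen with earlier results of the data known, and only counts and medians are given for them. The median log2 fold change of all genes tested was 0.016, 0.055 and -0.0080. With the prefix term in the fit of all 12 libraries, 2, 8 and 1 pathway genes were called lower and 0, 4 and 0 higher, against 0.368%, 3.36% and 0.245% of all genes lower and 0.0163%, 2.06% and 0.0654% higher, so calls were fewer over all genes too. Of 24 calls in Atg5 KO cells 14 were lost, those of Cpe, Vgf, Rab3d, Rab27b, Stx1a, Calcb, Pdyn, Tac4, Apln, Adcy9, Prkar2b, Pde4a, Nr4a1 and Bdnf, and of 17 in Atg7 KO cells all but that of Mme. All 24 genes called in Atg5 KO cells kept their direction there, and 23 a log2 fold change of 1 or more in size, with standard errors that reached 1.46 for Calcb. All 17 genes called in Atg7 KO cells kept their direction too, and 16 a log2 fold change of that size, with standard errors that reached 2.21 for Tac4.

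The filter on low values fixed the direction of some calls. Mme in each KO, Pdyn, Tac4 and Adcy9 in Atg5 KO, and Rab27a and Prkar1b in Atg7 KO cells had every library of the lower group under 0.5 RPKM, and were tested through the other group alone. They made 1 of 2, 4 of 24 and 3 of 17 called pathway genes, and their values in these KO cells are a description, with no test. Over all genes, 54 of 234, 159 of 1331 and 156 of 1191 calls were of this kind. Others came near it. In Atg7 KO cells Tac4 was at 0.0929, 0.176 and 0.825 RPKM and Anpep at 0.626, 0.0480 and 0.344, so both were tested mainly through control. Ace in Atg5 KO cells was tested mainly through the KO libraries, with control at 1.28, 0.312 and 0.130 RPKM. The filter favoured the direction of these calls, and of Syn1, S100a8 and Cldn5 in Atg5 KO cells.

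Of 10 receptor genes for the 3 peptides, the 2 analysed here were Npy1r and Adcyap1r1, and neither reached the level for testing. Npy1r, a receptor for NPY, was at 0.228, 0.732 and 2.19 RPKM in control cells, and at 0.132 to 0.349 RPKM in the KO libraries, a range that includes control replicate 1. Adcyap1r1, the receptor for PACAP that binds VIP weakly, was below 0.05 RPKM in every library. The main receptors for CCK and VIP, Cckar, Cckbr, Vipr1 and Vipr2, were not analysed here.

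Of 10 precursor processing genes tested, 1 fell in Atg5 KO, the same gene in Atg7 KO and none in Fip200 KO cells, against 6.94%, 6.81% and 1.64% of all genes, and the list medians were -0.017, 0.30 and 0.12. That gene was Cpe, encoding carboxypeptidase E, which removes the basic residues left by the convertases. Cpe was at 724, 629 and 787 RPKM in control cells, 158, 391 and 191 with Fip200 KO, 302, 282 and 178 with Atg5 KO, and 102.5, 348 and 234 with Atg7 KO. All control libraries were above all KO libraries, with log2 fold changes of -1.64 for Fip200 KO (adjusted p = 0.101), -1.52 for Atg5 KO (adjusted p = 0.00617) and -1.80 for Atg7 KO (adjusted p = 0.0335). The last call was lost without control replicate 3 (adjusted p = 0.1205).

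The other processing genes were not called. Tpst1, which sulfates tyrosines, was at 14.6 to 19.0 RPKM in control and 20.2 to 35.4 in the KO libraries with no overlap, and its log2 fold changes of 0.79 for Fip200 KO (adjusted p = 0.144), 0.89 for Atg5 KO (adjusted p = 0.00942) and 0.64 for Atg7 KO (adjusted p = 0.0716) were under the fold limit. Pam, which encodes the amidating enzyme that CCK, NPY and VIP all require, was at 47.1 to 62.5 RPKM in control and 22.7 to 78.2 in KO libraries. Furin, a convertase of the general secretory pathway, was at 34.6 to 45.8 and 24.1 to 49.7 RPKM. All its Fip200 KO and Atg7 KO libraries were below every control, while those of Atg5 KO overlapped control. Its log2 fold changes were -0.58, -0.043 and -0.46. Pcsk7, another such convertase, was at 6.64 to 7.78 and 6.58 to 10.2 RPKM. Tpst2, the related enzyme, was at 41.3 to 67.0 and 47.4 to 90.0 RPKM. The convertase gene Pcsk2 was at 3 or fewer reads in every control library. Amidation and furin-type cleavage transcripts were thus present in cells of every group.

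Genes of dense-core vesicles and their exocytosis were called in 1 direction. Of 8 tested, 1 was called lower with Fip200 KO, 6 with Atg5 KO and 4 with Atg7 KO, the last including Rab27a as a description, and none higher, with medians of -1.13, -1.23 and -0.95. Among all genes tested, 1.64%, 6.94% and 6.81% were called lower. Rab27a, a small GTPase that docks secretory vesicles at the plasma membrane, fell in Fip200 KO and Atg5 KO cells. It was at 8.23, 4.97 and 4.93 RPKM in control cells, 0.469, 0.592 and 1.92 with Fip200 KO, 0.888, 0.861 and 0.605 with Atg5 KO, and 0.370, 0.446 and 0.342 with Atg7 KO, with no overlap of control and KO. Its log2 fold changes were -2.22 for Fip200 KO (adjusted p = 0.0769), -2.32 for Atg5 KO (adjusted p = 0.00372) and -2.85 for Atg7 KO, where it was tested through control alone. The call in Fip200 KO was lost without any 1 of control replicates 1, 2 and 3 or Fip200 KO replicates 1 and 2, at adjusted p of 0.128 to 0.336. It was also lost with the prefix as a term in the fit of 6 libraries (log2 fold change -2.67, adjusted p = 0.557), in which 0 of all genes were called.

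The related vesicle GTPase gene Rab3a fell from 18.3, 25.9 and 20.8 RPKM in control cells to 5.24, 5.19 and 5.31 with Atg5 KO and to 2.45, 5.14 and 3.74 with Atg7 KO, and was at 11.1, 5.89 and 3.35 in Fip200 KO cells. Its log2 fold changes were -1.74 for Fip200 KO (adjusted p = 0.116), -1.94 for Atg5 KO (adjusted p = 0.00305) and -2.41 for Atg7 KO (adjusted p = 0.00806). Rab3d and Rab27b, of the same families, fell in Atg5 KO and Atg7 KO cells, with log2 fold changes of -1.20 and -1.10 for Rab3d and of -1.83 and -1.42 for Rab27b. The Rab3d call in Atg7 KO was lost without control replicate 2 (adjusted p = 0.0494), by its fold alone. Vgf, a granin, and Stx1a, a SNARE of exocytosis, were called in Atg5 KO cells and in no other KO, at log2 fold changes of -1.14 and -1.26, and each call was lost without 1 library, control replicate 2 for Vgf (-0.89) and Atg5 KO replicate 3 for Stx1a (-0.92). Whether these effects differ between KO cells was tested over all genes above, and no gene was called. Chga, the granin most used as a marker of dense-core granules, was at 3 or fewer reads in every library.

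Genes for enzymes that degrade peptides were described by 14, 15 and 15 tested members, of which 1, 2 and 2, Mme among them, were called lower and 0, 1 and 0 higher, with medians of 0.18, 0.28 and 0.19. The shares over all genes were 1.64%, 6.94% and 6.81% lower and 0.347%, 4.31% and 3.29% higher. Mme, encoding neprilysin, a membrane peptidase that cleaves neuropeptides outside the cell, was at 18.8, 13.8 and 17.0 RPKM in control cells and between 0.0145 and 0.429 in the KO libraries. Control and KO did not overlap, and the log2 fold changes were -4.67, -4.58 and -4.51, or -4.86, -4.25 and -3.72 with the prefix term in the fit of all 12 libraries. All 9 KO libraries were under the limit for testing, so these values are given with no test. Anpep, encoding aminopeptidase N, was at 4.79, 12.2 and 3.58 RPKM in control cells and 0.0270 to 2.56 in the KO libraries. It fell with Atg5 KO (log2 fold change -2.75). With Atg7 KO it was at 0.626, 0.0480 and 0.344 RPKM (log2 fold change -3.01) and was tested mainly through control. Ace, encoding angiotensin-converting enzyme, rose in Atg5 KO cells (log2 fold change 1.42), from 1.28, 0.312 and 0.130 to 2.76, 3.18 and 0.955 RPKM, and that call was lost without control replicate 2 or 3 or Atg5 KO replicate 1 or 2 (adjusted p of 0.156 to 0.191).

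**Figure D4:**
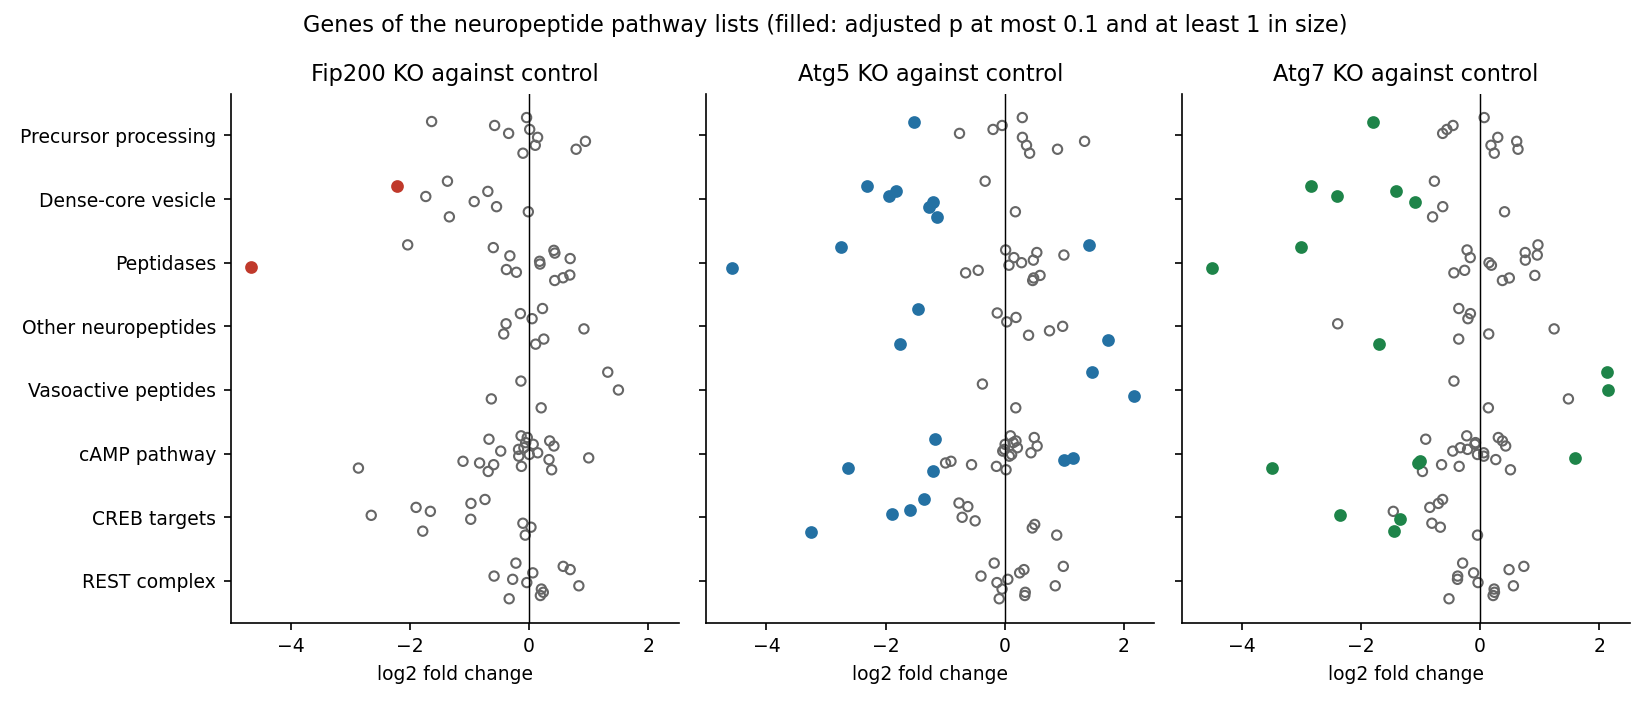
Log2 fold change of each tested gene of the pathway lists for each KO against control, 1 point per gene and 1 row per list. Filled points were called, and the vesicle row holds 1, 6 and 4 filled points below 0 and none above.

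Of 45 other neuropeptide genes, 17 had values, and 8, 9 and 8 were tested, with 0, 2 and 1 called lower and 0, 1 and 0 higher, of which Tac4 and Pdyn in Atg5 KO cells are a description, and medians of 0.079, 0.19 and -0.28. All genes tested gave 1.64%, 6.94% and 6.81% lower and 0.347%, 4.31% and 3.29% higher. Nmb, encoding neuromedin B and the highest of them in control cells, was at 94.1, 54.6 and 47.5 RPKM there, at 110.2, 75.7 and 12.8 with Fip200 KO, 63.5, 77.3 and 53.7 with Atg5 KO, and 18.4, 2.22 and 33.2 with Atg7 KO. Its values in Fip200 KO and Atg5 KO cells overlapped those of control. Every Atg7 KO library was below every control, with a log2 fold change of -2.39 (adjusted p = 0.102), and limma called it in no KO. Tac4, a tachykinin precursor, was at 3.85, 1.49 and 1.58 RPKM in control cells and 0.186 to 0.374 with Atg5 KO (log2 fold change -1.76, tested through control alone). With Atg7 KO it was at 0.0929, 0.176 and 0.825 RPKM (log2 fold change -1.70, adjusted p = 0.0426) and was tested mainly through control. The Tac4 call in Atg7 KO was lost without control replicate 3 or Atg7 KO replicate 1.

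In Fip200 KO replicate 1, Tac4 was at 30.3 RPKM and Calcb, encoding the beta form of calcitonin gene-related peptide, at 79.3, each the highest of the 12 libraries. The same library held the highest summed leukocyte marker level, 265 RPKM, of which the macrophage gene Cd68 gave 263. The other markers did not follow Cd68 there, with Lyz2 at 2.05, S100a8 at 0.129, Csf1r at 0.0130 and Ptprc and Adgre1 at 0 RPKM. Calcb fell in Atg5 KO cells (log2 fold change -1.46, adjusted p = 0.0991), a call lost without any 1 of 5 of the 6 libraries, the exception being control replicate 3, and with the prefix as a term (-0.63, adjusted p = 0.365). Pdyn, encoding the dynorphin precursor, was at 0.0498 to 0.124 RPKM in control and 0.944 to 1.97 RPKM in Atg5 KO cells, where it was tested through the KO libraries alone, and it was not tested in the other KO cells. Penk and Pomc, precursors of opioid peptides, were at 3 or fewer reads in every control library.

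The genes on the list of vasoactive peptides rose where they were called. Of 5, 4 and 5 tested, 0, 2 and 2 rose and none fell. Over all genes, 0.347%, 4.31% and 3.29% were called higher and 1.64%, 6.94% and 6.81% lower. The list did not hold Npy, Vip, Calcb or Tac4, whose lower values in KO cells are given above. Adm, encoding adrenomedullin, a vasodilator, was at 71.2, 56.1 and 73.6 RPKM in control cells, and rose to 150 to 252 in Atg5 KO (log2 fold change 1.48, adjusted p = 0.00635) and 261.5 to 334 in Atg7 KO cells (log2 fold change 2.14, adjusted p = 0.00416). In Fip200 KO cells it was at 142, 275 and 118 RPKM, above every control, with a log2 fold change of 1.32 that did not pass (adjusted p = 0.139). Apln, encoding apelin, was at 58.1, 12.5 and 56.6 RPKM in control cells and rose to 88.4 to 238 with Atg5 KO (log2 fold change 2.17, adjusted p = 0.0444) and to 96.5 to 259 with Atg7 KO (log2 fold change 2.15, adjusted p = 0.0624). In Fip200 KO cells it was at 17.2, 104.7 and 528 RPKM. The Apln call in Atg5 KO was lost without Atg5 KO replicate 1 or 2, and that in Atg7 KO without control replicate 3 or any Atg7 KO replicate.

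The cAMP pathway, which acts on the promoters of such genes, had 22 tested members, of which 0, 3 and 3 were called lower and 0, 2 and 1 higher, Adcy9 in Atg5 KO and Prkar1b in Atg7 KO cells being a description, with medians of -0.11, 0.051 and -0.15. For comparison, 1.64%, 6.94% and 6.81% of all genes were called lower and 0.347%, 4.31% and 3.29% higher. Prkar1b, a regulatory subunit of protein kinase A, was at 3.42 to 19.2 RPKM in control cells and 0.0400 to 1.05 in the KO libraries, and fell in Atg5 KO cells (log2 fold change -2.64, adjusted p = 0.0321). In Atg7 KO cells its log2 fold change was -3.49, tested through control alone. Prkaca, the main catalytic subunit, was at 58.4, 81.8 and 72.7 RPKM in control and 30.1 to 41.2 in the KO libraries, with log2 fold changes of -0.83, -0.99 and -1.04. Only the last passed the fold limit of 1, and it did not without control replicate 2 (-0.93) or Atg7 KO replicate 2 (-0.95). Prkar2b, another regulatory subunit, fell in Atg5 KO cells (log2 fold change -1.21), where the cyclase gene Adcy9 was at 0.282 to 0.431 RPKM against 1.38 to 1.48 in control.

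Phosphodiesterases, which break cAMP down, were called in both directions. Pde4a rose in Atg5 KO (log2 fold change 1.15, adjusted p = 0.0169) and Atg7 KO cells (log2 fold change 1.59, adjusted p = 0.0243), and the first was under the fold limit without control replicate 3 (0.91). Pde4d fell in Atg7 KO cells (log2 fold change -1.01, adjusted p = 0.0907), a call lost without any of 5 single libraries, all but Atg7 KO replicate 2. Creb1, the factor that binds the CRE, was at 5.72 to 6.59 RPKM in control and 5.07 to 6.99 in KO libraries, and Gnas, the stimulatory G protein, at 125 to 148 and 91.0 to 159 RPKM. Neither was called in any KO, and their ranges overlapped between control and KO.

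Genes known as CREB targets outside the neuropeptides fell in part. Of 10, 11 and 10 tested, 0, 4 and 3 were called lower and none higher, with medians of -0.98, -0.71 and -0.83. The calls over all genes were 1.64%, 6.94% and 6.81% lower. In Atg5 KO cells 6 members were lower and 1 higher at an unadjusted p under 0.05. Sik1 was above every control there, at 9.14 to 10.5 against 4.52 to 5.65 RPKM. Its log2 fold change of 0.87 (adjusted p = 0.00767) was under the fold limit. Nr4a1, a nuclear receptor induced early by cAMP, was at 32.2, 15.2 and 62.9 RPKM in control and 2.19 to 11.3 in KO libraries. Its log2 fold changes were -2.65 for Fip200 KO (adjusted p = 0.101), -1.90 for Atg5 KO (adjusted p = 0.0338) and -2.35 for Atg7 KO (adjusted p = 0.0556). The Atg5 KO call was lost with the prefix as a term in the fit of 6 libraries (log2 fold change -1.57, adjusted p = 0.127), and the Atg7 KO call without control replicate 1 or 3 or Atg7 KO replicate 1. Ptgs2, encoding cyclooxygenase 2, was at 215, 942 and 381 RPKM in control and 40.8 to 48.0 in Atg5 KO cells, with log2 fold changes of -3.25 there (adjusted p = 0.00680) and -1.45 for Atg7 KO (adjusted p = 0.0966). The Ptgs2 call in Atg7 KO was lost without control replicate 2 or 3 or any Atg7 KO replicate. Junb, of the AP-1 family, and Bdnf, a neurotrophin, fell in Atg5 KO cells, with log2 fold changes of -1.60 and -1.35, and the Junb call was lost without control replicate 2 or 3 or Atg5 KO replicate 1 or 3. Nr4a2, of the same family as Nr4a1, fell in Atg7 KO cells (log2 fold change -1.35).

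REST and its partners, which silence neuronal genes outside neurons, had 12 members tested and 0 called in any KO by limma or voom, with 1, 1 and 1 members lower and 1, 6 and 2 higher at an unadjusted p under 0.05 and medians of 0.12, 0.15 and 0.091. Without Fip200 KO replicate 3, 1 member was called higher in Fip200 KO cells, and 183 of all genes were. Rest was at 8.53, 7.36 and 7.39 RPKM in control cells and 7.00 to 11.95 in the KO libraries, and the groups overlapped.

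**Figure D5:**
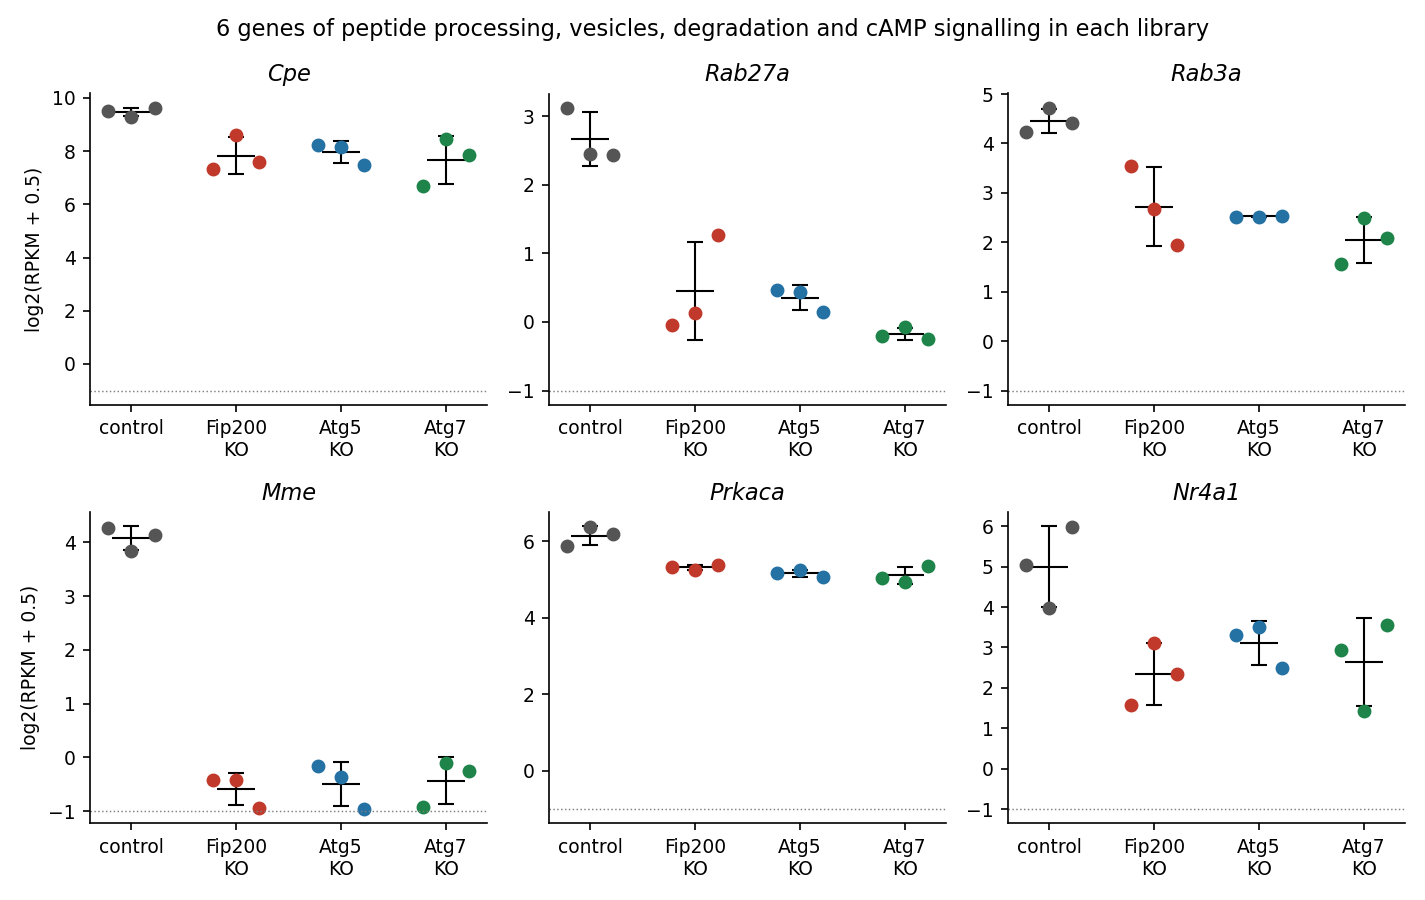
Level of 6 genes as log2(RPKM + 0.5) in each library, points in order of replicate, with bars for the mean and SD of 3 libraries per group and a dotted line at an RPKM of 0. For Mme the KO points lie below 0 and the control points near 4, while for Prkaca the step is about 1.

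Genes next to the 3 loci were examined to see if a whole region was lower. Of 18 neighbours, 3 on each side by RefSeq order, 17 were tested, and 0, 1 and 0 fell and 0, 3 and 1 rose, against 1.64%, 6.94% and 6.81% of all genes lower and 0.347%, 4.31% and 3.29% higher. Ctnnb1, Trak1, Sec22c, Ss18l2 and Nktr beside Cck were not called in any KO, and Ulk4 there was not tested. Beside Npy, Tra2a and Gsdme rose in Atg5 KO cells, and Ccdc126, Fam221a, Mpp6 and Osbpl3 were not called. Beside Vip, Syne1 fell in Atg5 KO cells and Fbxo5 rose in Atg5 KO and Atg7 KO cells, and Esr1, Myct1, Mtrf1l and Rgs17 were not called.

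Markers of other cells moved in part with the groups, and their part in the results was not tested. Of 22 neuronal markers 10 were in the tables, with a summed level of 81.0 to 145 RPKM in control, 93.7 to 166 with Fip200 KO, 81.2 to 227 with Atg5 KO and 95.4 to 159 with Atg7 KO, and Map2 and Nefm were at 3 or fewer reads in every control library. Among them, Syn1 fell in Atg5 KO and Gap43 in Atg7 KO cells, while Uchl1 rose in both. The 15 endothelial markers summed to 1504 to 3155 RPKM in control, 2244 to 3358 with Fip200 KO, 3008 to 3565 with Atg5 KO and 2494 to 3578 with Atg7 KO, with 0, 4 and 1 of 14 tested called higher and none lower, against 0.347%, 4.31% and 3.29% of all genes higher. Of 9 leukocyte markers 6 were in the tables and summed to 56.5 to 112.5 RPKM in control, 19.3 to 265 with Fip200 KO, 15.0 to 17.5 with Atg5 KO and 14.3 to 27.5 with Atg7 KO, where Cd68 fell in Atg5 KO and Atg7 KO and S100a8 in Atg5 KO cells and Adgre1 was at 3 or fewer reads in every control library. Cd68, Lyz2 and S100a8 gave most of these sums. Ptprc was at 0.0186 to 0.0971 RPKM in control and 0 to 0.129 in KO libraries, and Csf1r at 0.0261 to 0.0817 and 0.0130 to 0.179. Of 11 mural and fibroblast markers 10 were in the tables and summed to 6.23 to 214 RPKM in control, 5.57 to 44.1 with Fip200 KO, 13.6 to 43.4 with Atg5 KO and 5.02 to 67.5 with Atg7 KO, with Acta2 and Tagln called higher in Atg5 KO and Tagln in Atg7 KO cells, where Col1a2 was called higher through the KO libraries alone and S100a8 lower through control alone. The highest sum in control came from fibroblast genes. Col3a1 was at 2.82, 143 and 23.1 RPKM in control replicates 1, 2 and 3 and at 0.158 to 34.3 in the KO libraries, with log2 fold changes of -2.07, -1.49 and -3.58 and adjusted p of 0.529, 0.450 and 0.111. Dcn was at 0.0550 to 0.989 RPKM in the KO libraries, Pdgfra at 0.0571 to 0.320 and Pdgfrb, at 0.0188, 4.19 and 0.261 in control, at 0 to 0.195. Col1a2 went the other way, at 0.00969 to 0.0202 RPKM in control and 0.102 to 1.54 in the KO libraries, while Col1a1, at 0.0341 to 0.0785 and 0.0175 to 0.476 RPKM, overlapped. Control replicates 2 and 3 were above every KO library for Dcn, Pdgfra and Pdgfrb and replicate 1 was not, and the part of these markers in the results was not tested.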

How the data were processed

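RNA of 12 samples of cultured cells was sequenced from NEBNext Ultra II Directional libraries. By the study's methods, the reads were aligned with TopHat2 and per-transcript read counts were made with Bioconductor, while the genome build is not given in the sources used here. The authors deposited 1 table per KO against the same 3 control libraries. The deposited per-library values are RPKM, a unit read from the values. The deposited group means are a signal, the mean of reads divided by size factors. The authors' fold changes and p-values, also in the tables, were not used.

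Whole reads were recovered for 14851 of 14851 genes to within 0.001, of which 20 genes had no reads and 19 were multiplied to match the deposited group means. Counting intervals and floors of 3 reads cover counting error only. No library repeated another of its group (chi-square per degree of freedom of 8.19 for Atg5 KO replicates 1 and 2 and at least 48.5 for other pairs). Genes that reached 0.5 RPKM in 3 or more libraries were tested on log2(RPKM + 0.5) by limma 3.58.1 in R 4.3.3, with a trended prior and Benjamini-Hochberg adjustment over all genes tested. Each KO was fitted with control, and KO pairs in a fit of 12 libraries, whose values for the 3 genes are a description. Calls needed an adjusted p not above 0.1 and a log2 fold change outside -1 to 1. The tests and the recovery of reads were tested on simulated data.

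The 3 genes, the 13 gene lists and the tests were chosen with earlier results of these data known. Genes named from a list were those called in at least 1 KO, at most 6 per list by mean size of change, and every detected receptor. The 3 most correlated genes, the 3 neighbours on each side and the 5 highest on-off genes were also named, and other list members were named after their values were seen. Alternatives were other pseudocounts, filters, scalings and samples, a replicate block, a term for the library-name prefix and limma voom on the recovered reads. Promoters came from RefSeq on GRCm38.p6, and all 3 genes matched by symbol. Precursor proteins were not analysed here.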

Additional observations from a re-analysis of the deposited data

How the results depend on the processing

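Each log2 difference of Cck, Npy and Vip from control stayed below 0 in all 38 values per gene from the alternatives, which ranged from -9.38 to -4.80 for Cck, -7.85 to -3.83 for Npy and -4.69 to -2.51 for Vip. The genes were selected on these same libraries, which had set this sign beforehand. The sizes moved with the pseudocount, since the KO libraries held few reads. With a pseudocount of 0.1 the differences for the Fip200, Atg5 and Atg7 KO were -6.94, -5.89 and -6.95 for Npy and -4.12, -4.09 and -4.25 for Vip. With a pseudocount of 1 they were -4.11, -3.83 and -4.11 for Npy and -2.51, -2.51 and -2.53 for Vip. By limma voom on whole reads they were -7.85, -6.44 and -7.70 for Npy, -4.49, -4.45 and -4.69 for Vip, and -9.38 for Cck in Atg7 KO cells. With the prefix term in 1 fit of all 12 libraries, chosen after seeing the data, Atg7 KO gave -4.14 for Npy and -3.51 for Vip. Leaving out single libraries moved Cck between -8.05 and -5.59 in Fip200 KO cells.

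Between KO cells, which the selection held near 0, the sign of several differences turned. With the prefix as a term, Atg5 KO minus Fip200 KO was -1.91 for Cck and -0.33 for Vip, and Npy was 0.14 for Atg7 KO minus Atg5 KO and 0.78 for Atg7 KO minus Fip200 KO, which was 0.15 by voom. Median-of-ratios scaling gave -0.0060 for Vip in Atg5 KO minus Fip200 KO. Without single libraries, Atg5 KO minus Fip200 KO ranged from -0.36 to 2.10 for Cck and -0.11 to 0.10 for Vip, Atg7 KO minus Fip200 KO from -2.45 to 0.0070 for Cck, -0.15 to 0.14 for Npy and -0.23 to 0.11 for Vip, and Atg7 KO minus Atg5 KO from -0.24 to 0.10 for Vip. The cause was not tested.

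Of the pathway genes, 2, 18 and 14 were called lower and 0, 6 and 3 higher. In Fip200 KO cells 0 were called lower with the prefix as a term, where 0 of all genes were called, 1 with no filter on low values, where 130 of all were lower and 16 higher, and 11 lower and 2 higher in 1 fit of all 12 libraries, where 450 of all were lower and 158 higher. With the prefix in that fit, 8 were lower in Atg5 KO and 1 lower and 0 higher in Atg7 KO cells, and of all genes 411 were lower in the first and 30 lower and 8 higher in the second. Without single libraries, Fip200 KO gave 1 to 4 lower and 0 to 2 higher, and Atg7 KO 10 to 16 lower and 2 to 5 higher. Replicate numbers were shared by the groups, but same-numbered libraries did not deviate together (correlations of -0.22 to 0.077), so the numbers do not pair them. With the replicate number as a block, 1 pathway gene was called lower in Fip200 KO cells, and 80 genes in all were lower and 13 higher, against 193 and 41. Over all genes, Fip200 KO had 21 lower without control replicate 2, 9 without control replicate 3, 38 without Fip200 KO replicate 2, and 411 without Fip200 KO replicate 3. Atg7 KO had 803 lower and 388 higher with all libraries. These were 486 and 217 without control replicate 3, 533 and 200 without Atg7 KO replicate 1, and 970 and 620 without Atg7 KO replicate 2.

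Depth limits Npy most, since 8 of 9 KO libraries were at or under 3 reads. A level below the floor cannot be told from 0.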
